A study of Homo sapiens with 4 samples.

Results

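The long noncoding RNA genes MIR17HG, NBAT1, DANCR, MALAT1, NEAT1, MEG3, H19 and DLEU2, all studied in cancer, were examined for their response to loss of MYCN in neuroblastoma cells. They were taken by symbol from the gene tables, and all 8 were among the 26364 genes listed. RNA had been sequenced from BE(2)C cells, a human neuroblastoma line with an amplified MYCN gene, to see which genes depend on MYCN. The 2 control samples (Ctrl) were transfected with an siRNA without a target, and the 2 knockdown samples (MYCN KD) with an siRNA against MYCN, for 6 h at 80 nM according to the sample labels; the methods text of the study gives a lower final concentration. All 4 samples came from the same line, labelled wild type in genotype, and RNA was taken on the day after the transfection. A single line and a single siRNA against MYCN limit the model. Nothing in the labels says whether the 2 samples of a group came from separate cultures, and p-values measure only the spread between these samples, which may be technical.

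A long noncoding RNA is a transcript that is not translated but is often spliced and polyadenylated like a messenger RNA. Some are hosts, whose transcripts also carry microRNAs or small nucleolar RNAs. Others build nuclear bodies, recruit chromatin modifiers or belong to imprinted loci, where the copy from only one parent is read. MYC proteins are known to drive the miR-17-92 microRNA cluster in MIR17HG, and NBAT1 is known as a transcript of a neuroblastoma risk locus on chromosome 6p22.

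The values are RPKM, read counts per length of the gene and size of the library, which the authors had calculated after adjusting the counts for unwanted variation. They turned out to be whole multiples of the value of a single count, so that the counts behind each value could be recovered. According to the study these are counts after the adjustment, so that they may differ from the reads sequenced. They are called reads below. The totals were 34142988 and 31976939 reads in Ctrl replicates 1 and 2, and 29055819 and 30941778 reads in MYCN KD replicates 1 and 2. Fold changes are given as the difference in log2(RPKM + 1), MYCN KD minus Ctrl, which understates the change of genes with a low RPKM, and ratios are of the mean RPKM. A gene was tested with limma if its mean RPKM over the 4 samples was at least 1, and was called at an adjusted p (Benjamini-Hochberg over the 11411 tested genes) under 0.05. MYCN itself was lower in both libraries labelled MYCN KD, at 720 and 718 RPKM, beside 1067.9 and 1073.0 RPKM in Ctrl (log2 fold change -0.57, SE 0.029, adjusted p = 0.00361). The 9 adrenergic markers of neuroblastoma were all expressed, with a summed level of 1776.1 and 1629.0 RPKM in Ctrl, beside 2435.5 and 2662.4 RPKM in MYCN KD, and 4 of them rose and 2 fell. The 10 markers of other cell types summed to between 6.01 and 12.5 RPKM, higher in MYCN KD, with PTPRC and ALB at no more than 1 read per sample. Of the 10, 2 were tested, the fibroblast genes DCN and COL1A1, and both rose. COL1A2, also a fibroblast marker, lay under the filter, with 3 and 4 reads in Ctrl and 4 and 3 reads in MYCN KD. DCN went from 4.58 and 5.52 RPKM to 9.33 and 7.78 RPKM (0.66, adjusted p = 0.0269). COL1A1 rose by 0.67 (adjusted p = 0.00365) and passed the filter through the MYCN KD samples. The part of these markers in the results below was not tested, and in bulk RNA fewer cells of a type and less RNA per cell cannot be told apart.

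Of the 8 genes, 6 passed the filter, and MIR17HG and H19 lay under it. NBAT1, MEG3 and NEAT1 rose, DANCR fell, and MALAT1 and DLEU2 did not pass the test. The call rate among the tested genes was thus 66.7%, beside 48.1% of all tested genes (25.3% called higher and 22.8% lower). NBAT1 and NEAT1 had Ctrl means under 1 RPKM and passed the filter through the MYCN KD samples, so that the count over the 6 tested genes is a description only. In 7 of the 8 genes the values of the groups did not overlap, 4 with both MYCN KD samples above both Ctrl samples and 3 below. Values that did not overlap were found for 76.2% of all tested genes (40.4% above and 35.8% below) and for 65.6% of the 19908 genes above 0, so that this count lies near the background. The median log2 fold change of the 6 tested genes was 0.39, and that of all tested genes was 0.026.

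**Figure D1:**
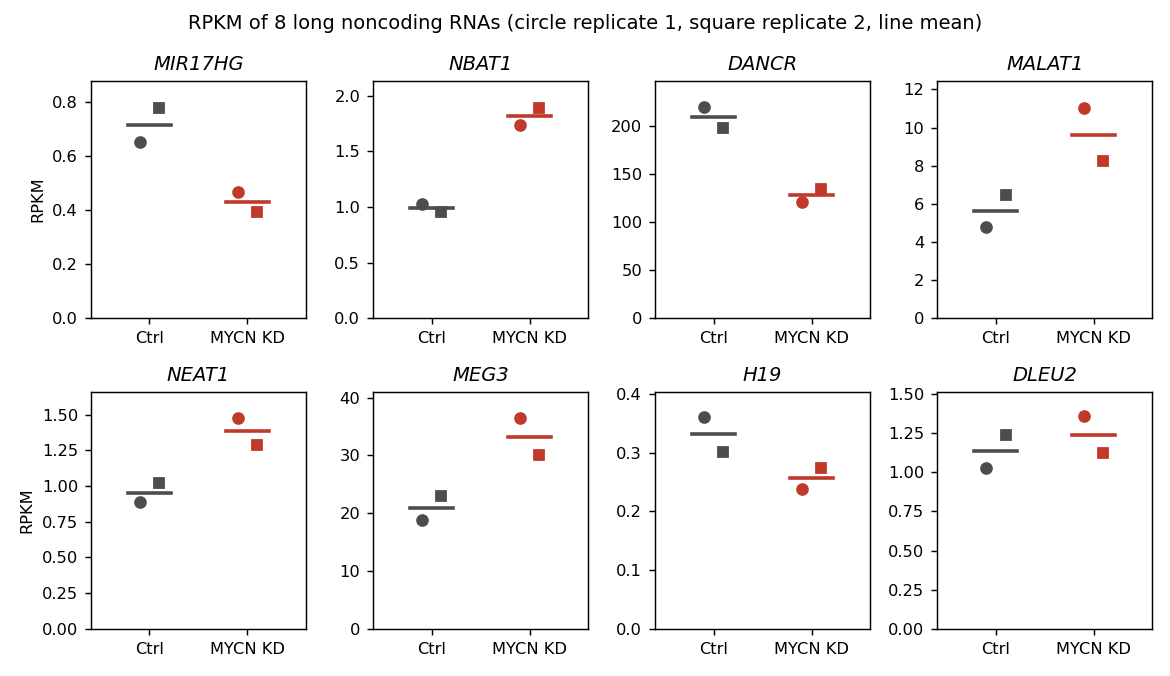
RPKM of each of the 8 genes (y axis, from 0, a separate scale in each panel) in the 2 Ctrl samples (grey) and the 2 MYCN KD samples (red), with circles for replicate 1, squares for replicate 2 and lines for the means. The values of the groups overlap only for DLEU2.

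The genes differed widely in level. In Ctrl, DANCR had the highest level at 208 ± 15.1 RPKM (SD, n = 2 in this and all following means), above 98.8% of the listed genes. MEG3 followed at 20.9 ± 2.95 RPKM and MALAT1 at 5.63 ± 1.16 RPKM. DLEU2, NBAT1 and NEAT1 stood next to each other at 1.13 ± 0.153, 0.994 ± 0.0565 and 0.956 ± 0.0951 RPKM. The samples of NBAT1 overlapped with those of DLEU2 and of NEAT1. DLEU2 (1.03 and 1.24 RPKM) lay above NEAT1 (0.889 and 1.02 RPKM) by a narrow margin only, so that no firm order among these can be given. MIR17HG at 0.716 ± 0.0886 RPKM and H19 at 0.331 ± 0.0423 RPKM were lowest, and their samples did not overlap with those of the genes above them. H19 nevertheless lay above 50.8% of the listed genes, since many genes were at or near 0.

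MIR17HG is the host gene of the miR-17-92 cluster, a group of 6 microRNAs known for promoting growth in MYC-driven tumours. Its position on the plus strand of chromosome 13 (GRCh37, as for all gene positions below) is 91999940 to 92049846, with 5 exons in its canonical transcript. A microRNA finds its targets mainly through its seed, bases 2 to 8, and the cluster is shown because its members fall into groups by seed. The 6 hairpins lie within MIR17HG between 91350605 and 91351391 of chromosome 13 on GRCh38.p14, and the mature sequences, from RefSeq on that build, are given 5′ to 3′ with the seed in capitals.
miR-17-5p: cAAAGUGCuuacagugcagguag
miR-20a-5p: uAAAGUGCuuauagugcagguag
miR-18a-5p: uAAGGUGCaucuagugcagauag
miR-19a-3p: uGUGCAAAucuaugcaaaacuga
miR-19b-3p: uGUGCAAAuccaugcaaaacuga
miR-92a-3p: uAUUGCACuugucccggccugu
The pair miR-17-5p and miR-20a-5p shared 1 seed, the pair miR-19a-3p and miR-19b-3p another, and miR-18a-5p and miR-92a-3p each had a seed of their own.

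The Ctrl samples had 0.654 and 0.779 RPKM of MIR17HG, and the MYCN KD samples 0.466 and 0.393 RPKM. Neither MYCN KD sample reached the level of a Ctrl sample, and the mean was 1.67-fold lower in MYCN KD (0.43 ± 0.052 RPKM). The values rested on 112 and 125 reads in Ctrl and 68 and 61 reads in MYCN KD, and the exact 95% Poisson intervals of these counts did not overlap between groups (lowest bound in Ctrl 92.2 reads, highest bound in MYCN KD 86.2 reads). These intervals treat the adjusted counts as reads sequenced, so that they describe counting error at best and no spread between samples. Because its mean RPKM was under 1, MIR17HG had no place in the main test. Without a filter, over the 19908 genes above 0, its log2 fold change was -0.26 (SE 0.054, 95% interval -0.43 to -0.10, adjusted p = 0.0472 from limma), where 13.0% of genes were called lower. With voom, limma's method for counts, on the recovered reads of genes with 10 or more reads, it was -0.73 (SE 0.15, 95% interval -1.16 to -0.30, adjusted p = 0.0312), where 18.0% of genes were called lower. This larger value is on a scale without the added 1. Exons of annotated MIR17HG transcripts share 2639 bases with a long noncoding RNA on the opposite strand that is not among the listed genes. As the strand setting is not known, reads there cannot be assigned to either gene with certainty.

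DLEU2, the host gene of miR-15a and miR-16-1 in a region of 13q14 that is often deleted in leukaemia, did not pass the test. It spans 50530806 to 50699856 of chromosome 13 on the minus strand, with 14 exons in its canonical transcript. Its mature microRNAs, cut from hairpins between 50048973 and 50049201 on GRCh38.p14, are shown because both have the same seed, unlike any seed of the miR-17-92 cluster.
miR-15a-5p: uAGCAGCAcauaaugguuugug
miR-16-5p: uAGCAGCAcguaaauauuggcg
DLEU2 had 1.03 and 1.24 RPKM in Ctrl, beside 1.36 and 1.12 RPKM after knockdown, so that the groups overlapped. Its log2 fold change was 0.068 (SE 0.087, 95% interval -0.19 to 0.32, adjusted p = 0.551). The interval spans changes in either direction, and the sign turned when either replicate 1 was left out (-0.005 without Ctrl replicate 1 and -0.0074 without MYCN KD replicate 1) and with quantile normalization (-0.054).

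The hosted microRNA hairpins gave hardly any reads in these libraries. Of 12 hairpins hosted by the 8 genes and listed in the tables, 11 were at 0 reads in all 4 samples, among them all 6 of the miR-17-92 cluster, MIR15A and MIR16-1 of DLEU2, MIR675 of H19, MIR770 of MEG3 and MIR612 of the NEAT1 locus. For the 10 of them with a known hairpin length, the limit of 3 reads corresponds to between 0.897 and 1.45 RPKM. The exception was MIR4449, which lies within DANCR, with 8 and 2 reads in Ctrl and 1 and 3 reads in MYCN KD (log2 fold change -0.62, SE 0.53, adjusted p = 0.392). Changes in mature microRNA therefore could not be measured, and only the host transcripts are described.

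Known target genes of the 2 microRNA families moved in both directions. For comparison, 25.3% of all tested genes were called higher and 22.8% lower. Of 16 genes listed as targets of the miR-17-92 cluster, 13 were tested, 5 rose and 4 fell, with a median log2 fold change of 0.09 (-0.032 with quantile normalization) beside 0.026 over all tested genes. The largest changes were rises of DKK3, an antagonist of Wnt signalling (from 12.1 and 12.8 RPKM to 40.3 and 38.1 RPKM, log2 fold change 1.58, SE 0.053), of CDKN1A, the cell cycle inhibitor p21 (1.48, SE 0.064), and of ZBTB4, a transcriptional repressor (1.25, SE 0.037), each with an adjusted p of 0.00359. Of 8 targets of miR-15/16, 7 were tested, 1 rose and 3 fell, with a median of 0.015, whose sign turned under some settings. BCL2, which blocks apoptosis, rose (0.67, adjusted p = 0.00867), while CDC25A, a phosphatase that drives the cell cycle, fell (-0.86, adjusted p = 0.00359), as did CCNE1, cyclin E1 (-0.57, adjusted p = 0.0107). Of 8 genes of microRNA processing, 0 rose and 3 fell in the limma test, with a median of -0.17, and 0 were higher at an unadjusted p under 0.05 or by voom. These were XPO5, which exports microRNA precursors from the nucleus (-0.78, adjusted p = 0.00414), and AGO2 and AGO1, which bind mature microRNAs (-0.27, adjusted p = 0.013, and -0.25, adjusted p = 0.0165).

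NBAT1, a transcript of the 6p22 risk locus whose loss is linked to aggressive neuroblastoma, rose. It lies on chromosome 6 from 22133434 to 22147422 on the minus strand and has 3 exons. Its level was 1.03 and 0.954 RPKM in Ctrl, against 1.74 and 1.89 RPKM in MYCN KD, from 81 and 70 reads and 116 and 134 reads. The knockdown samples were both higher than either Ctrl sample, and the mean was 1.82-fold higher at 1.81 ± 0.104 RPKM. The log2 fold change was 0.50 (SE 0.05, 95% interval 0.35 to 0.64, adjusted p = 0.00759), and the call held under each alternative without a replicate block. CASC15, the long noncoding RNA read from the opposite strand of the same locus, had 0.837 and 1.08 RPKM in Ctrl, against 1.91 and 1.51 RPKM in MYCN KD, and it also rose (0.47, SE 0.11, adjusted p = 0.0408). Like NBAT1, it passed the filter through the MYCN KD samples, and its call was lost without the filter (adjusted p = 0.0657). The exons of both genes overlap over 227 bases, and since no source used here says whether counting used the strand, reads there cannot be assigned to either gene.

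Of 9 genes linked to NBAT1 in neuroblastoma, 7 were tested, 2 rose and 3 fell, with a median log2 fold change of -0.32. The shares called higher and lower over all tested genes were 25.3% and 22.8%. SOX9, a transcription factor that NBAT1 is known to act upon together with CASC15, rose (0.63, SE 0.051, adjusted p = 0.00569). EZH2, the histone methyltransferase that NBAT1 is known to bind, fell from 29.6 and 32.6 RPKM to 22.6 and 20.6 RPKM (-0.51, adjusted p = 0.0162), and USP36, a nucleolar deubiquitinase, fell as well (-0.49, adjusted p = 0.00956). SOX4, a transcription factor gene whose start lies 553 kb from that of NBAT1, rose from 48.2 and 53.2 RPKM to 83.8 and 76.2 RPKM (0.65, SE 0.08, adjusted p = 0.0107).

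DANCR, a long noncoding RNA known for keeping progenitor cells undifferentiated and host of the small nucleolar RNA SNORA26, was the one gene among the 6 tested that fell. It lies on chromosome 4 from 53578492 to 53589790 on the plus strand, with 4 exons in its canonical transcript. It had 219 and 198 RPKM in Ctrl, falling to 121 and 134 RPKM in MYCN KD, from 6391 and 5401 reads and 3005 and 3542 reads. Every knockdown sample was below every Ctrl sample, and the mean was 1.63-fold lower at 127 ± 9.14 RPKM. The log2 fold change was -0.70 (SE 0.084, 95% interval -0.95 to -0.46, adjusted p = 0.00997), and the call held under each alternative. Exons of annotated DANCR transcripts overlap genes on the opposite strand. These are a processed pseudogene (751 bases), a long noncoding RNA (556 bases) and ERVMER34-1 (127 bases). How much of this falls within the counted length of 855 bases was not examined, and the strand setting is not known.

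SNORA26 guides pseudouridylation of RNA and fell along with its host. Its level was 13.7 and 15.1 RPKM in Ctrl, but 5.92 and 5.3 RPKM in MYCN KD, from 57 and 59 reads and 21 and 20 reads. The groups did not overlap, and the log2 fold change was -1.22 (SE 0.082, adjusted p = 0.00444). SNORA26 overlaps exons of annotated DANCR transcripts on the same strand over 122 bases, so that reads there cannot be assigned to either with certainty, and the difference between SNORA26 and DANCR was not tested. The genes with the pattern most like DANCR over the 4 samples were SNHG3, another host of small nucleolar RNAs (Euclidean distance 0.0133 between the 4 centred log2 values, log2 fold change -0.71), and MRPS26, a protein of the mitochondrial ribosome (distance 0.0159, log2 fold change -0.72).

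The promoters of DANCR, MIR17HG and DLEU2 are shown because the first pair had values in MYCN KD that passed a test as lower and the third holds the sole CACGTG among the promoters examined. CACGTG is the E-box that MYC proteins are known to bind. RefSeq (GRCh38.p14) gave windows of 300 bases, reaching from upstream of a start site to just past it, for 7 of the 8 genes (11 windows in all). CACGTG, which reads the same on both strands, was in 7.26% of all 35116 windows and in 1 of the 2 windows of DLEU2. A second motif, CCAAT on either strand (ATTGG on the reverse), was searched after the sequences had been seen, and it was in 34.6% of all windows. The promoter of DANCR held 5 copies, a number reached in 0.359% of all windows, those of MIR17HG and of MEG3, which rose, held 1 (MEG3 in each of its 3 overlapping windows), and the other windows held none. Capitals mark CCAAT in the first pair of sequences and CACGTG in the third, and the motifs do not overlap each other.
DANCR, chr4:52712144-52712443, plus strand: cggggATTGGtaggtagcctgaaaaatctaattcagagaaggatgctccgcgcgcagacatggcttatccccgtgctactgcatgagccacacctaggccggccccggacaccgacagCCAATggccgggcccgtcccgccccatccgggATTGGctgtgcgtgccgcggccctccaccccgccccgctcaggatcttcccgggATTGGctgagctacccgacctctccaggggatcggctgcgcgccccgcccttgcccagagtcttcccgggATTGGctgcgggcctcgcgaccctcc
MIR17HG, chr13:91347437-91347736, plus strand: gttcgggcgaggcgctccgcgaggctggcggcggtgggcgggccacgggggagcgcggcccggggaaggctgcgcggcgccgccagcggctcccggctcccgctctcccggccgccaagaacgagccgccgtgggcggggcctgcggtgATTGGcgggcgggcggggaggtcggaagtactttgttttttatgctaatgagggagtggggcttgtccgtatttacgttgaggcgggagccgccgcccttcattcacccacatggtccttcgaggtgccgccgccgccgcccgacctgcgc
DLEU2, chr13:50125492-50125791, minus strand: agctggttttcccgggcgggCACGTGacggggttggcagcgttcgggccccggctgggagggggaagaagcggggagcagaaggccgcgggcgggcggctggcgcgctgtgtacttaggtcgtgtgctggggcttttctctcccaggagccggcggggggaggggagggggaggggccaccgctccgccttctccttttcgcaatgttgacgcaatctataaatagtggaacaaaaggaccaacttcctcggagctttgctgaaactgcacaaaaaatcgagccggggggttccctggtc
A match of letters is a description of the sequence and no evidence of binding. The windows of NBAT1, MALAT1, MEG3 and H19 held no CACGTG, which says nothing about sites elsewhere in these genes.

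MALAT1 and NEAT1 are neighbours on chromosome 11q13 and are both retained in the nucleus, MALAT1 in nuclear speckles, which store splicing factors, and NEAT1 as the scaffold of paraspeckles. MALAT1 lies from 65265111 to 65275544 and NEAT1 from 65190245 to 65213011, both on the plus strand and each with 1 exon in its canonical transcript. MALAT1 had 4.81 and 6.45 RPKM in Ctrl, compared with 11.0 and 8.27 RPKM in MYCN KD, from 1436 and 1805 reads and 2797 and 2239 reads. Both MYCN KD samples were above both Ctrl samples, and the ratio of the means was 1.71. The spread within the groups was wide, however, and with a log2 fold change of 0.68 (SE 0.20, 95% interval 0.093 to 1.27) the difference did not pass the threshold (adjusted p = 0.0638, unadjusted p = 0.0334). With quantile normalization it passed (0.64, adjusted p = 0.0406). TALAM1, a long noncoding RNA on the opposite strand that is not among the listed genes, shares 8121 exon bases with MALAT1. The counted length of MALAT1 was 8751 bases, and as the strand setting is not known, reads there cannot be assigned to either gene with certainty.

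NEAT1 was lower in level but steadier. It had 0.889 and 1.02 RPKM in Ctrl, compared with 1.48 and 1.29 RPKM in MYCN KD, from 690 and 744 reads and 976 and 907 reads. Again the knockdown samples were both above the Ctrl samples, and the mean was 1.45-fold higher at 1.38 ± 0.133 RPKM. Its log2 fold change of 0.28 (SE 0.067, 95% interval 0.089 to 0.48, adjusted p = 0.0393) was close to the threshold. The call was lost without Ctrl replicate 1 (0.24, adjusted p = 0.136), without MYCN KD replicate 1 (0.23, adjusted p = 0.144), with quantile normalization (0.16, adjusted p = 0.0724) and without the filter (0.28, adjusted p = 0.0608), where 17.0% of genes were called higher. The counted length of 22741 bases spans the long form of NEAT1, and the short form, which covers its 5′ end, cannot be separated from it here.

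MALAT1 and the long form of NEAT1 are known to end without an ordinary poly(A) tail, and whether the libraries were selected for poly(A) is not given in the sources used here. Of 12 RNAs listed as lacking a poly(A) tail, 8 were in the tables and 4 were tested, with 1 higher and 1 lower. RNU11, of the minor spliceosome, was called higher (0.58, adjusted p = 0.0252) from 6 and 5 reads in Ctrl and 8 and 11 in MYCN KD. TERC, the RNA of telomerase, was called lower (-0.51, adjusted p = 0.0114) from 28 and 24 reads in Ctrl and 11 and 14 in MYCN KD. For either gene the Poisson intervals overlapped between groups, so that these calls rest on few reads. Summed, the 8 listed RNAs reached 15.4 and 10.5 RPKM in Ctrl, compared with 9.93 and 15.2 RPKM after knockdown. This sum was high in Ctrl replicate 1 and MYCN KD replicate 2 and so did not follow the groups.

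Genes for proteins of the nuclear bodies were lower where they changed. Over all tested genes, 25.3% were called higher and 22.8% lower. Of 13 paraspeckle protein genes, all tested, 0 rose and 8 fell, with a median log2 fold change of -0.23. SFPQ, one of the proteins that bind NEAT1 to form the body, went from 174 and 189 RPKM to 146 and 135 RPKM (-0.36, adjusted p = 0.0239). DAZAP1 (-0.47, adjusted p = 0.00502) and HNRNPH3 (-0.37, adjusted p = 0.0294), both RNA-binding proteins, fell as well. Of 12 nuclear speckle protein genes, 0 rose and 8 fell, with a median of -0.36, led by the splicing factors SRSF2 (-0.49, adjusted p = 0.00436) and SRSF7 (-0.42, adjusted p = 0.0113) and by PNN (-0.42, adjusted p = 0.0212), a protein of the speckles. In both lists every log2 fold change was negative in the main limma test, with 0 genes higher at an unadjusted p under 0.05 or by voom. Some lay close to 0, such as SON of the speckles (-0.00028, adjusted p = 0.997) and NUDT21 of the paraspeckles (-0.039, adjusted p = 0.756), so that their sign carries no weight.

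**Figure D2:**
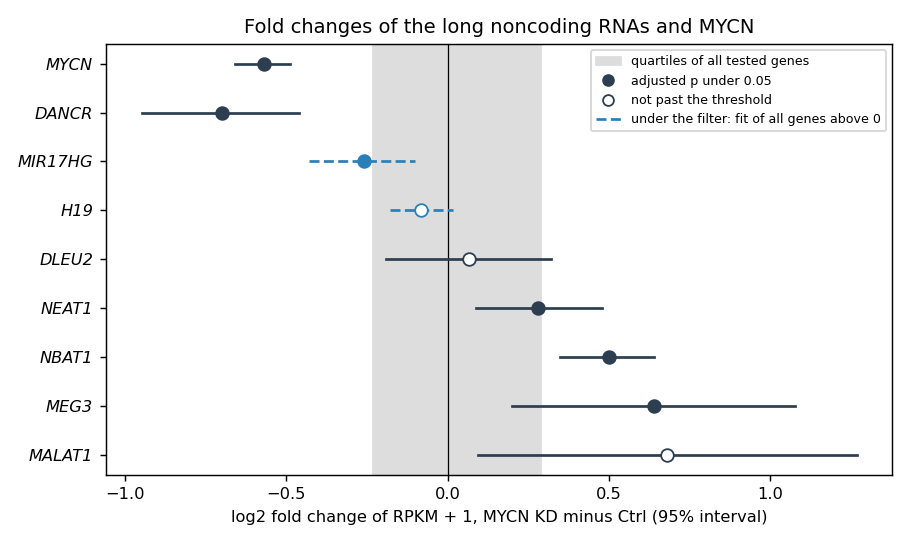
Log2 fold change of RPKM + 1 (x axis) of the 8 genes and MYCN with 95% intervals, filled where the adjusted p was under 0.05. Dashed lines are genes under the filter, from the fit over all genes above 0, and the grey band holds the middle of all tested genes, from -0.23 to 0.29. The intervals of NEAT1, NBAT1, MEG3 and MALAT1 lie above 0, and those of DANCR and MIR17HG below.

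MEG3, an imprinted RNA read from the maternal copy of 14q32 and known as a growth suppressor that is silenced in many tumours, rose. It lies on chromosome 14 from 101245747 to 101327368 on the plus strand. Ctrl had 18.8 and 23.0 RPKM of MEG3, while MYCN KD had 36.4 and 30.0 RPKM, from 6796 and 7776 reads and 11183 and 9808 reads. The groups did not overlap, and the mean was 1.59-fold higher at 33.2 ± 4.54 RPKM. The log2 fold change was 0.64 (SE 0.15, 95% interval 0.20 to 1.08, adjusted p = 0.0393). The call was lost without the filter (0.64, adjusted p = 0.0632), where the same difference was adjusted over more genes.

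The MEG3 locus changed in a like direction at most of its tested genes. RTL1, a retrotransposon-derived gene read from the paternal copy, rose from 20.3 and 19.7 RPKM to 36.8 and 38 RPKM (0.87, SE 0.041, adjusted p = 0.00359). BEGAIN, which encodes a synaptic protein and lies upstream of MEG3, rose by 0.74 (adjusted p = 0.00359), and the noncoding MEG9 by 0.37 (adjusted p = 0.00843). DLK1, a Notch-related ligand and among the most abundant genes here, rose from 1470.7 and 1391.3 RPKM to 1599.7 and 1688.5 RPKM (0.20, SE 0.051, adjusted p = 0.0473), a call that was lost without the filter (adjusted p = 0.092). MEG8, a noncoding RNA between MEG3 and MEG9 and on the same strand, had 4.47 and 5.02 RPKM in Ctrl, next to 5.04 and 4.48 RPKM in MYCN KD. Its samples overlapped between groups (0.0036, SE 0.084, adjusted p = 0.974).

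H19, an imprinted RNA of 11p15 that is abundant in the embryo, was the lowest of the 8 genes. It lies on chromosome 11 from 2016396 to 2025782 on the minus strand, with 5 exons in its canonical transcript. Ctrl had 0.361 and 0.301 RPKM of H19, while MYCN KD had 0.239 and 0.274 RPKM, from 32 and 25 reads and 18 and 22 reads. The knockdown samples were both below the Ctrl samples, but the difference did not pass. Without the filter, the log2 fold change was -0.083 (95% interval -0.18 to 0.017, adjusted p = 0.161). IGF2, the growth factor gene that shares the imprinting control of H19, was far higher in level and rose from 22.2 and 22.4 RPKM to 32.5 and 32.2 RPKM (0.52, SE 0.034, adjusted p = 0.0044). IGF2-AS, read from the other strand at IGF2, had 16.3 and 13.9 RPKM in Ctrl, next to 12.9 and 15 RPKM in MYCN KD (-0.11, adjusted p = 0.488). Of 18 imprinted genes listed, 9 were tested, of which 6 rose and 0 fell in the limma test, with a median of 0.22. At an unadjusted p under 0.05 or by voom, 0 were lower. Beside this, 25.3% of all tested genes were called higher and 22.8% lower. PEG10, an imprinted gene elsewhere in the genome, had a negative log2 fold change that did not pass (-0.12, adjusted p = 0.459).

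Around the 8 genes, 31 neighbours were listed, of which 23 were tested, 10 rose and 2 fell, with a median log2 fold change of 0.13. Among all tested genes 25.3% were called higher and 22.8% lower, with a median of 0.026. When the p-values were adjusted over all genes without the filter, 6 of the tested neighbours were called higher and 2 lower. The 2 tested neighbours that fell were both on chromosome 13 beside DLEU2, which itself did not pass the test. DLEU1, whose start lies 43.6 kb from that of DLEU2 on the opposite strand, fell from 4.12 and 3.81 RPKM to 1.83 and 1.97 RPKM (-0.77, SE 0.057, adjusted p = 0.00496). EBPL, a relative of a sterol isomerase, lies 434 kb away and fell from 45.4 and 43.4 RPKM to 22 and 23 RPKM (-0.95, SE 0.046, adjusted p = 0.00359). TRIM13, a ubiquitin ligase between these, shares 690 exon bases with DLEU2 on the opposite strand and did not pass (0.13, adjusted p = 0.313). ERVMER34-1, 39.3 kb from the start of DANCR, lay under the filter. Its counts dropped from 26 and 25 reads to 5 reads in each MYCN KD sample. It was called lower without the filter (-0.25, adjusted p = 0.0068) and by voom (-2.10, adjusted p = 0.00541). GPC5 and KCNRG, also under the filter, were called higher without it (0.10, adjusted p = 0.0176, and 0.082, adjusted p = 0.0457). Beside NEAT1 and MALAT1, LTBP3 and FAM89B rose (0.34, adjusted p = 0.0376, and 0.40, adjusted p = 0.0444), though neither passed without the filter (adjusted p = 0.0617 and 0.0685). SSSCA1 had 56.4 and 49.8 RPKM in Ctrl, next to 39 and 44 RPKM in MYCN KD, and did not pass (-0.35, adjusted p = 0.0581). RTL1, DLEU1 and EBPL are named as the largest changes past the threshold among the neighbours, and IGF2, MEG9 and CASC15 as such in other lists, while the remaining neighbours were singled out after their values had been seen.

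**Figure D3:**
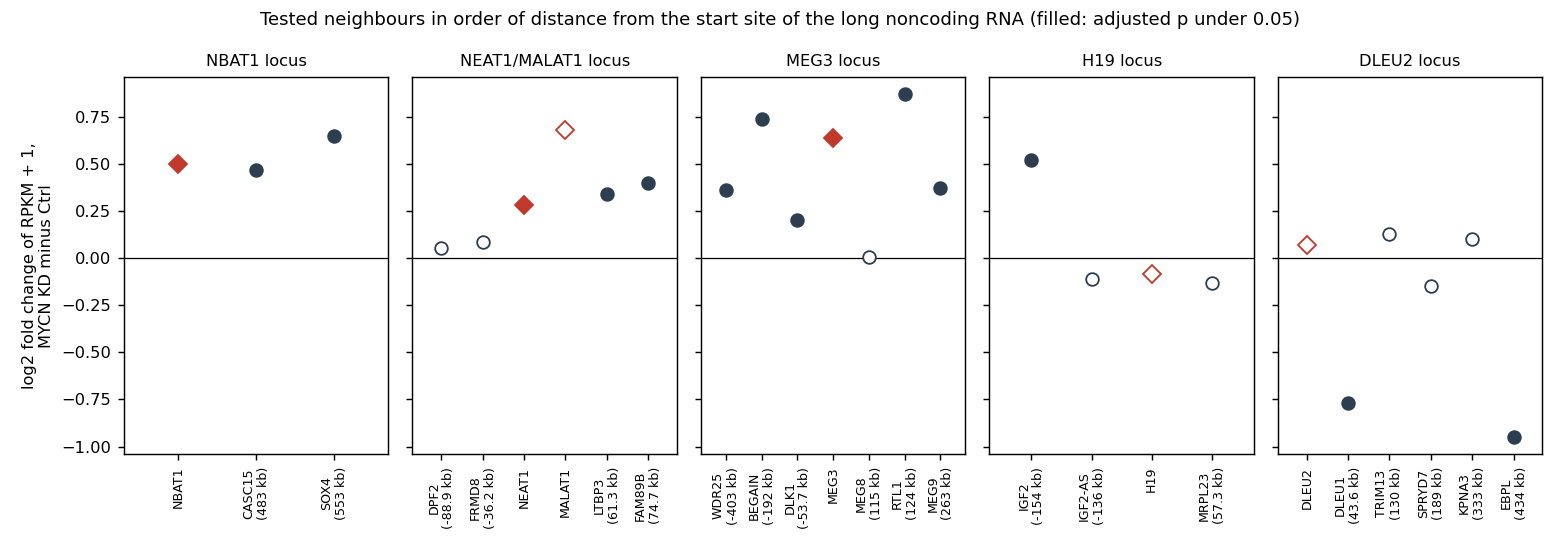
Log2 fold change of RPKM + 1 (y axis) of the tested neighbours (circles) and of the long noncoding RNAs (diamonds) at 5 loci, filled where the adjusted p was under 0.05, with the distance in kb from the start site of the nearest of the 8 genes (negative upstream). H19 is under the filter and shown without a test, and not every tested neighbour is plotted. EBPL and DLEU1 lie lowest, at -0.95 and -0.77, and RTL1 highest, at 0.87.

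Other genes followed nearly the same course over the 4 samples as each tested long noncoding RNA. By the same distance the closest were APPL2 and PSTPIP1 for NBAT1 (0.00893 and 0.00903), LOC102723661 and SCYL2 for MALAT1 (0.00914 and 0.0191), and SPECC1L for NEAT1 (0.00857). They were EML4 and UBR1 for MEG3 (0.0195 for each) and PI4KAP1 and RYK for DLEU2 (0.00588 and 0.00702). With 4 samples and 11411 genes, close patterns are to be found for nearly any gene.

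Long noncoding RNAs as a class were called higher more often than lower. Of the 364 tested genes typed as such in RefSeq, 39.8% were called higher and 14.3% lower, with a median log2 fold change of 0.17 beside 0.026 for all 11411 tested genes. This comparison was not matched for level. The median of all tested genes was -0.012 at a mean RPKM of at least 5, and some, such as NBAT1 and NEAT1, passed the filter through the MYCN KD samples. Of 26 other long noncoding RNAs studied in cancer, 24 were listed and 12 tested, of which 5 rose and 2 fell, with a median of 0.12. Over all tested genes 25.3% were called higher and 22.8% lower. Among those that rose, CASC15 and FTX (means of 0.847 RPKM in Ctrl and 1.34 RPKM in MYCN KD) passed the filter through the MYCN KD samples. The count is therefore a description only. MYCNOS, read from the strand opposite to MYCN, rose from 27.5 and 28.1 RPKM to 52.6 and 51.5 RPKM while MYCN fell (0.88, SE 0.036, adjusted p = 0.00359), though exons of both overlap over 98 bases. LINC00657, known as NORAD and for sequestering PUMILIO proteins, rose from 32.7 and 38 RPKM to 63.7 and 55 RPKM (0.73, SE 0.12, adjusted p = 0.0177). Over all tested genes, 2890 were called higher and 2599 lower, and when each sample was rescaled by the median ratio these numbers were 2417 and 3254.

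**Figure D4:**
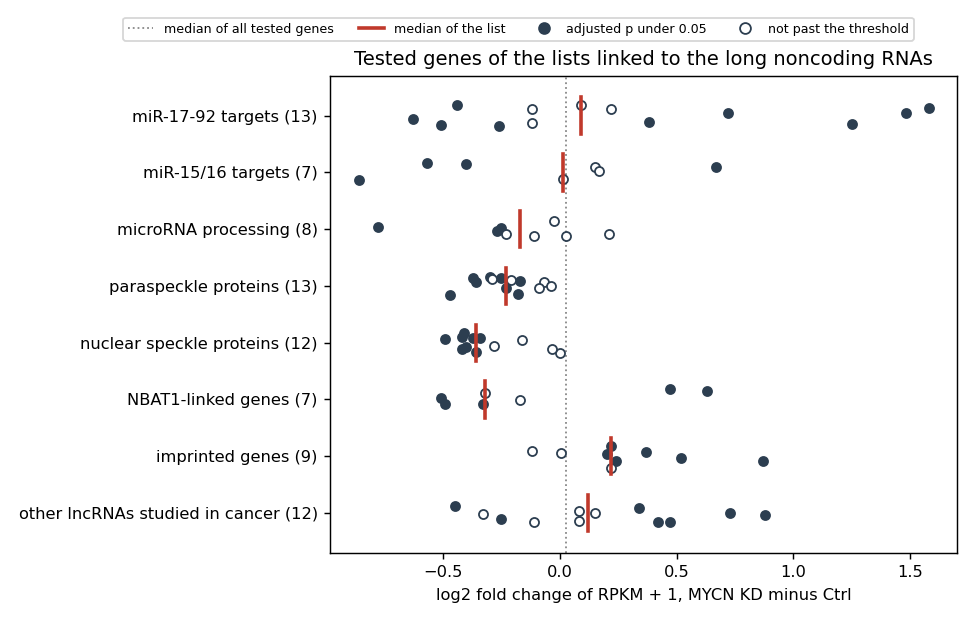
Log2 fold change of RPKM + 1 (x axis) of each tested gene (points) in 8 lists linked to the long noncoding RNAs, with the number tested in parentheses, filled where the adjusted p was under 0.05. Red bars are the list medians, from -0.36 for nuclear speckle proteins to 0.22 for imprinted genes, and the dotted line is the median of all tested genes at 0.026.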

How the data were processed

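RNA-seq of 4 samples of BE(2)C cells, 2 Ctrl and 2 MYCN KD, was analysed, with groups taken from the sample labels. Upstream, the authors used HISAT2 2.1.0 for mapping to hg19, featureCounts for counting on RefSeq genes, and DESeq2 and RUVSeq for modelling and adjusting the counts, from which they deposited RPKM values, 1 file per sample. The RUVSeq variant, the strand setting and the selection of RNA are not given in the sources used here. Such an adjustment can shrink the spread between replicates, and tests on its output inherit that.

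The total behind each sample was recovered from the RPKM of microRNA hairpins of known length (94.81% to 96.39% of hairpins above 0 gave whole reads within 0.001 of a read), and all 19908 genes above 0 then gave whole reads within 0.002 of a read, a margin that widens slightly with the number of reads. Replicates were compared on these counts, which follow the adjustment, as possible copies of 1 library. The chi-square per degree of freedom was 11.32 (Ctrl) and 10.14 (MYCN KD) over 13088 genes. Sampling alone gives a value near unity for counts that are not adjusted. log2(RPKM + 1) was tested with limma 3.58.1 in R 4.3.3 (lmFit, eBayes with trend), without a block, for the 11411 genes whose mean RPKM reached 1, and p-values were adjusted by Benjamini-Hochberg, with a threshold at 0.05. On data simulated for this comparison over 11411 genes (10 draws), 96.9% of 200 genes changed 2-fold were recovered and 12.6% of calls were false, above the nominal rate. The simulated counts were independent between samples, had a fixed spread and left most genes unchanged. In the real data 48.1% of tested genes were called, so that these rates may not hold there. With 2 samples against 2, an exact permutation test cannot give a two-sided p below 0.3333, so none was run on single genes.

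The long noncoding RNAs and all gene lists were chosen with earlier results of these data known. Named genes were the 8 long noncoding RNAs, MYCN, their hosted small RNAs, up to 3 genes of each list with the largest change past the threshold, and the 2 genes with the nearest pattern to each tested long noncoding RNA, though a few of these are not reported here. Positions are from GENCODE release 44 lifted to GRCh37, and sequences and gene types (found for 98.9% of tested genes) are from RefSeq on GRCh38.p14. Alternatives were a pseudocount of 0.1, no filter, a mean RPKM of at least 5, other scalings, eBayes without trend, voom on the recovered reads, the replicate block and each sample left out. A crossed block, no filter with the pseudocount of 0.1, no filter with the block, and voom on genes with 10 or more reads were added after seeing the data. Scripts ran in Python 3.11.15 with pandas 2.3.3, numpy 2.4.6 and scipy 1.17.1, and plots were drawn with matplotlib 3.10.9.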

Additional observations from a re-analysis of the deposited data

How the results depend on the processing

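Of 109 alternative values of MYCN and the 6 long noncoding RNAs in the main test, 89 kept their direction and their side of the threshold, and 27 of 30 numbers of called genes stayed within 1.5 times. DANCR kept its call in all of them, and NBAT1 and MYCN in all but the block without a filter. NEAT1 lost its call without the filter (0.28, adjusted p = 0.0608), with the pseudocount of 0.1 in addition (0.49, adjusted p = 0.0611) and with quantile normalization (0.16, adjusted p = 0.0724), and when single samples were left out it ranged from 0.23 to 0.34. MEG3 lost its call without the filter (0.64, adjusted p = 0.0632) and with the pseudocount of 0.1 in addition (0.66, adjusted p = 0.0597). MALAT1 passed with quantile normalization (0.64, adjusted p = 0.0406) and with single samples left out (0.49 to 0.87). MIR17HG passed without the filter at -0.26, with the pseudocount of 0.1 at -0.62 and with voom at -0.73. H19 moved to -0.27 and -0.36 under the same 2 later settings without passing. DLEU2 turned to -0.054 with quantile normalization and to -0.005 and -0.0074 without either replicate 1. At a mean RPKM of at least 5, 1868 genes were called higher. Counting the listed genes that pass the filter but adjusting over all genes without it, 6 rather than 10 neighbours were called higher. Of the other long noncoding RNAs, 3 rather than 5 were higher and 1 rather than 2 lower. Of the genes linked to NBAT1, 1 rather than 2 were higher and 2 rather than 3 lower. Adrenergic markers called lower were 0 rather than 2. In the paraspeckle list and in the nuclear speckle list, 6 rather than 8 were lower. Imprinted genes called higher were 5 rather than 6. Of the miR-17-92 targets, 4 rather than 5 were higher and 3 rather than 4 lower, and of the miR-15/16 targets 2 rather than 3 were lower. The medians of the lists turned sign in 7 of 143 alternatives. They were -0.032 for the miR-17-92 targets (quantile normalization), -0.06 (median ratio), for the miR-15/16 targets (from -0.015 to 0.045 with single samples left out), and 0.03 (mean RPKM of at least 5) for RNAs lacking a poly(A) tail (from -0.37 to 0.16 with single samples left out). Another 45 moved by more than the spread between replicates with the sign kept. Fits that left out a sample drew a gene's variance from its mean expression alone, so that their small p-values carry little weight.

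Sharing a replicate number did not make samples alike. Over the 11411 tested genes, the deviations of replicate 1 from the group mean correlated at -0.9845 between Ctrl and MYCN KD, so the numbers did not pair the samples. The deposited values had been adjusted by RUVSeq, and its part in this mirroring, and with it in the SDs, SEs and p-values, was not tested. With the replicate block, MALAT1 passed (0.68, adjusted p = 0.000575) and NEAT1 did not (0.28, adjusted p = 0.14), and in a fit with the block and without the filter NBAT1 (0.50, adjusted p = 0.0724), NEAT1 (0.28, adjusted p = 0.23), MIR17HG (-0.26, adjusted p = 0.0957) and MYCN (-0.57, adjusted p = 0.0532) did not. With the block and the filter, 2077 genes were called higher and 1851 lower, in a fit whose variances also came from mean expression. With the numbers crossed, which was added with the data in view, 5910 genes were called higher and 5262 lower.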
